A study of Mus musculus with 6 samples.

Results

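The 10 genes described here are the transcription factor genes that place the boundary between midbrain and hindbrain, or that act beside them in the early neural plate: Otx1, Otx2, Gbx2, En1, En2, Pax2, Pax5, Pax8, Meis1 and Meis2. They were taken by name from the 52609 annotated genes in the deposited files, by summing the reads and the TPM (a level that takes account of transcript length) of all transcripts of each gene. The set was chosen by name with the read counts and log2 folds between the groups already known, so those differences are given as a description, with no p-value. The series sequenced polyadenylated RNA from epiblast stem cells of the mouse, primed pluripotent cells from the epiblast of the embryo, and by its title it asks how Activin A bears on their allocation to ectoderm. A group of 3 libraries had Activin A at 20 ng/mL and a group of 3 had none. Both groups carried FGF2 at 10 ng/mL, IWP2 at 5 µM, which blocks Wnt secretion, and SB431542 at 2 µM, which inhibits the type I receptors of Activin and Nodal.

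The labels leave several points unsettled. The cells were grown on inactivated mouse embryonic fibroblasts, whose RNA enters the libraries. The library without Activin A replicate 1 is titled as lacking Activin A although its growth factor entry lists it, and the treatment text is worded the same for all 6 libraries. The design text speaks of 2 lines, so a difference of line and the omission of Activin A cannot be told apart. Whether each library is a separate culture is not stated, and the p-values rest on the spread among these libraries alone, which may be technical.

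In the neural plate, the homeodomain factor Otx2 marks the future forebrain and midbrain and Gbx2 the future anterior hindbrain, each represses the other, and the isthmic organizer forms where they meet. Wnt1 on the midbrain side and Fgf8 with Fgf17 on the hindbrain side are the signals of that organizer, and the paired-box genes Pax2, Pax5 and Pax8 and the engrailed genes En1 and En2 keep it in place. Otx2 is also expressed throughout the epiblast and is a regulator of the primed pluripotent state, while Gbx2 is also known from naive pluripotent cells, so neither gene marks a brain region by itself in these cultures.

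The libraries held 9946521 to 16350923 estimated reads. Of 15448 genes tested with edgeR's quasi-likelihood test, 29.2% passed an adjusted p of 0.05 (14.0% higher and 15.2% lower without Activin A), and the median log2 fold over all tested genes was 0.00123. Of the 10 boundary genes, 8 had enough reads to be tested. Gbx2, En1 and Pax2 are among the higher calls, Otx2, En2 and Meis1 among the lower, and Otx1 and Meis2 in neither. This sorting, in which Pax2 and Meis1 lose their place with DESeq2, only describes the fit, and nothing is read from it, because the genes were chosen with these results known. En2 entered the test only through its reads with Activin A and Pax2 only through its reads without it, so a difference in these 2 genes was a condition of their being tested. The CPM values (counts scaled to library size with TMM) of 7 of the 8 genes did not overlap between the groups, against 42.9% of all tested genes.

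Otx2, the head and epiblast factor, was the most abundant of the 10 genes in every library. Its level was 37.8, 35.6 and 38.1 TPM with Activin A and 26.9, 25.7 and 26.3 TPM without. All 3 libraries with Activin A were above all 3 without, and the spread within each group was small. On 928 to 1500 reads with and 853 to 924 reads without, the level was 1.48-fold lower without Activin A, a log2 fold of -0.56 with a standard error (SE) of 0.05. Otx2 (ENSMUSG00000021848.16) lies on chromosome 14 of GRCm38 at 48657677 to 48673819, on the minus strand. A short same-strand stretch is shared with the gene model Gm49154, which holds 3.23% of its 31-base words.

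**Figure D1:**
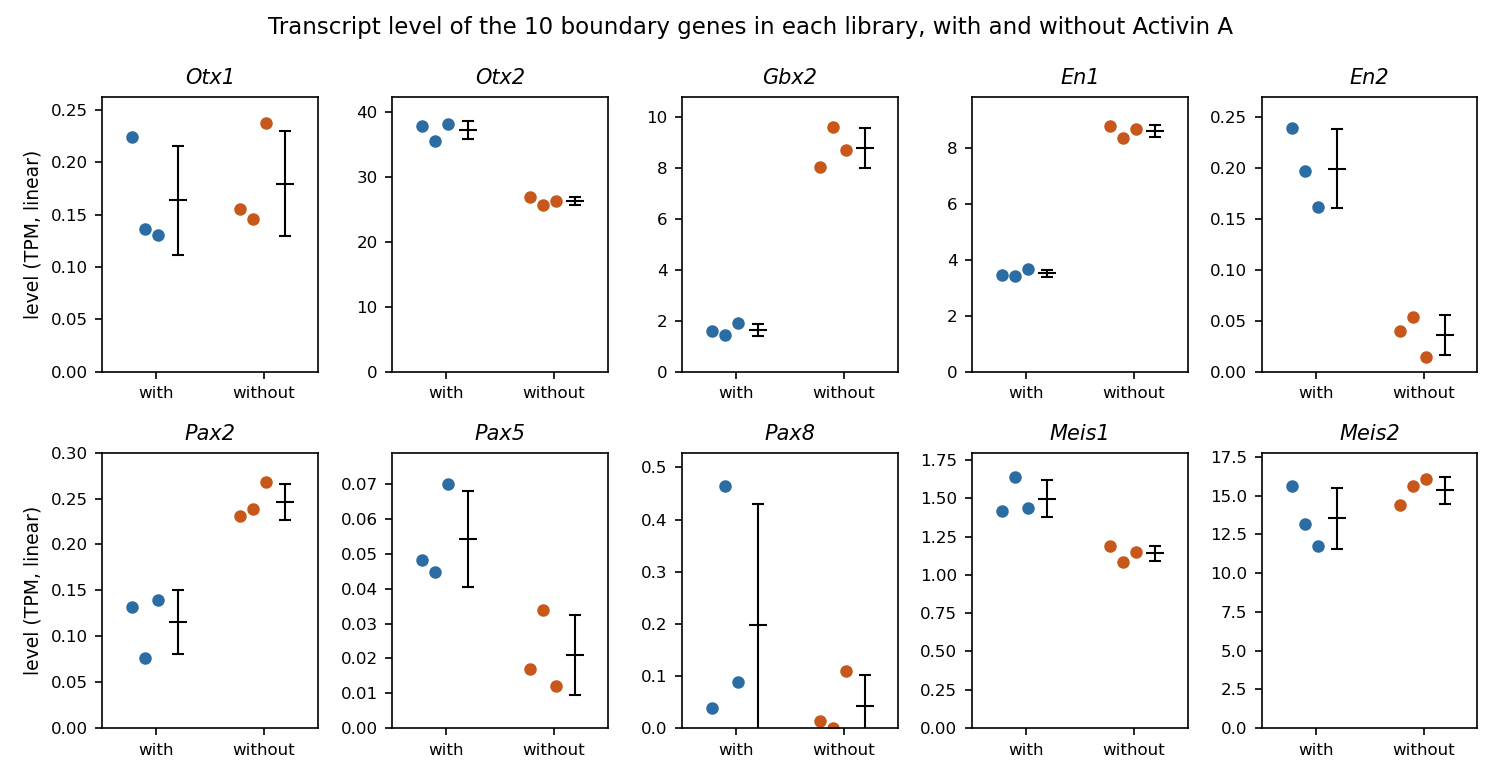
Level of each of the 10 genes in TPM (linear vertical axes, each with its own range starting at 0), with and without Activin A. Points are libraries in the order of replicates 1 to 3, and the bar beside them is the mean with its SD (n = 3). Otx2 is lower without Activin A and Gbx2 and En1 are higher, with no overlap, while Otx1, Pax8 and Meis2 overlap between the groups.

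Otx1, the paralog of Otx2 that acts later in cortex and sense organs, was near the limit of detection. It had 11, 9 and 8 reads with Activin A and 9, 11 and 14 without, and the groups overlapped. The log2 fold was 0.20 with an SE of 0.35, and it was -0.021 when the library without Activin A replicate 3 was left out, so these reads give no direction. In TPM, Otx2 stood 241 ± 63.9 times above Otx1 with Activin A and 153 ± 36.9 times without (SD, n = 3 each).

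Gbx2, the factor of the hindbrain side, differed more than any other of the 8 tested genes in the upward direction. Its level was 1.58, 1.43 and 1.91 TPM with Activin A and 8.04, 9.60 and 8.71 TPM without. The lowest library without Activin A was thus several times above the highest with it. The log2 fold was 2.44 with an SE of 0.13, a 5.41-fold higher level without Activin A, the 22nd largest rise in rank among all 15448 tested genes. Gbx2 (ENSMUSG00000034486.8) is on chromosome 1 at 89927956 to 89931179, on the minus strand.

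Part of the Gbx2 exons cannot be told from another gene without the strand of a read. The noncoding gene D130058E05Rik runs on the opposite strand and shares 946 of the 2177 exon bases of Gbx2, and 42.7% of the 31-base words of Gbx2 occur in it. D130058E05Rik had 35.5, 38.1 and 18.0 reads with Activin A and 64.3, 70.2 and 73.3 without. The sum of both genes was 5.48 ± 0.129 CPM with Activin A and 22.4 ± 1.33 CPM without (SD, n = 3 each), which is 4.09-fold. The difference was therefore also present in the sum, where the split does not matter, at a smaller size than the 5.40-fold of Gbx2 alone. Of the reads of Gbx2, 24.5, 27.9 and 19.5 with Activin A and 123, 148 and 126 without were assigned to Gbx2-202, a model with a retained intron. That model held 72.2% ± 13.8 of the Gbx2 TPM with and 69.3% ± 0.362 without (SD, n = 3 each).

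Upstream DNA is printed for Otx2, which was lower, and for Gbx2 and En1, which were higher. The stretches come from the RefSeq promoter table (build GRCm38.p6), which held windows for 8 of the 10 genes and none for Otx1 and En2, and each is trimmed to bases before the start site that lie outside every GENCODE exon of its gene. They run 5′ to 3′ on the strand of the gene, at chr14:48667645-48667894 (minus strand), chr1:89931180-89931426 (minus strand) and chr1:120602237-120602417 (plus strand). Capitals mark TAATTA, the core bound by many homeodomain proteins, engrailed and Gbx proteins among them, and would mark GGATTA, the core bound by Otx proteins, on either strand.
Otx2, upstream start: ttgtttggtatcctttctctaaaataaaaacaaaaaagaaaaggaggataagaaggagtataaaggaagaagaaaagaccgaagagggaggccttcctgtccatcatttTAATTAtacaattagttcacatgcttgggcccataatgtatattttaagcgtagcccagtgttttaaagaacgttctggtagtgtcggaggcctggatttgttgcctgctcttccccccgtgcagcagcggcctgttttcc
Gbx2: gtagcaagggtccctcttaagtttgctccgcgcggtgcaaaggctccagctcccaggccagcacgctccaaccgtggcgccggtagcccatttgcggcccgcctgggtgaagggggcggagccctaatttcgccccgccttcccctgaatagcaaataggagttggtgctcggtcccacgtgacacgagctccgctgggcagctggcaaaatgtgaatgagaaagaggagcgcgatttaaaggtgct
En1: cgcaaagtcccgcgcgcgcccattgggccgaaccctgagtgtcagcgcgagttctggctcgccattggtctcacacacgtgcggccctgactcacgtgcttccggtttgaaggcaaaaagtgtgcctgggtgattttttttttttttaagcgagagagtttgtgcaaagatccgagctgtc

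The Otx2 stretch holds 6 CpG dinucleotides and 1 TAATTA, the Gbx2 stretch 18 CpG and neither core, and the En1 stretch 15 CpG and neither core. Over whole windows, the 4 of Otx2 had 6 to 16 CpG and 41.7 to 53.7% G and C, the middle start the most CpG, Gbx2 had 27 CpG and 64.7% G and C and En1 had 23 CpG and 57.0%, against a median of 7 CpG and 52.7% over all 32851 windows. The window of the middle start of Otx2 (chr14:48665060-48665359, wholly exonic in another Otx2 transcript and not printed) holds 3 TAATTA and 1 GGATTA. Of all windows 5.29% hold at least 1 TAATTA, 16 windows (0.0487%) hold 3 or more, and 7.06% hold GGATTA. A match describes the letters in a window and is neither a binding site nor a cause. The SMAD box CAGAC was found, on either strand, in windows of Pax2, Pax5, Pax8 and Meis2, against 49.6% of all windows, and no match of it lay in the windows of Otx2, Gbx2, En1 or Meis1.

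The ratio of Otx2 to Gbx2, both in TPM, sets the anterior and posterior factors side by side within each library. It was 23.9, 25.0 and 20.0 with Activin A and 3.34, 2.68 and 3.02 without. The means were 22.9 ± 2.65 and 3.01 ± 0.331 (SD, n = 3 each), so Otx2 transcripts outnumbered those of Gbx2 in every library, by a smaller factor without Activin A. Most of the shift in the ratio lay on the side of Gbx2, whose log2 fold of 2.44 was larger in size than the -0.56 of Otx2.

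**Figure D2:**
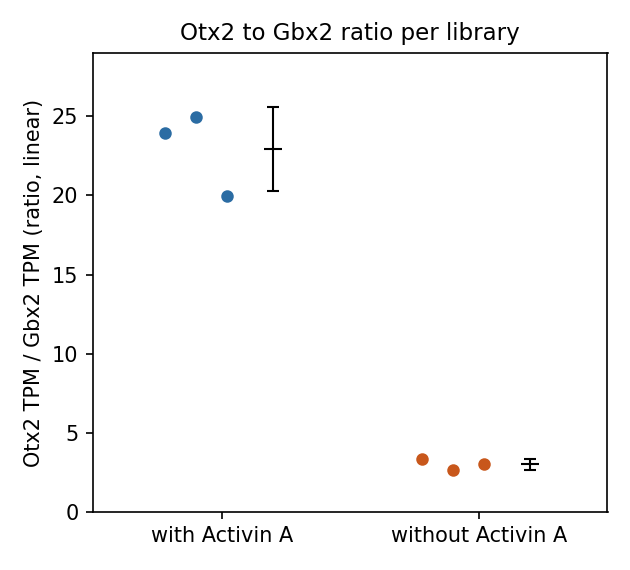
Ratio of Otx2 TPM to Gbx2 TPM (linear axis from 0) in each library, with and without Activin A. Points are replicates 1 to 3 and the bar is the mean with its SD (n = 3). The ratios lie between 20.0 and 25.0 with Activin A and between 2.68 and 3.34 without.

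The 2 engrailed genes moved in opposite directions. En1, the homeodomain repressor that maintains midbrain and cerebellum, had 3.45, 3.42 and 3.66 TPM with Activin A and 8.78, 8.34 and 8.69 TPM without. The groups were far apart compared with the spread inside them. The log2 fold was 1.27 with an SE of 0.08, a 2.42-fold higher level on 131 to 219 reads with and 445 to 475 reads without. En1 (ENSMUSG00000058665.8, chromosome 1, 120602418 to 120607992) has 1 annotated transcript and shares almost no 31-base words with other genes.

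En2, its paralog in the cerebellar primordium, had 21, 15 and 8 reads with Activin A and 3, 4 and 1 without. Every library with Activin A was above every library without it, at levels of 0.161 to 0.239 against 0.014 to 0.053 TPM. The log2 fold was -2.47 with an SE of 0.46, the largest fall in size among the 8 tested genes and the least precise. The ratio of En1 to En2 in TPM was 18.2 ± 4.18 with Activin A and 331 ± 249 without (SD, n = 3 each), and the wide spread of the second value comes with the 1 to 4 reads of En2. En2 (ENSMUSG00000039095.8) lies on chromosome 5 at 28165694 to 28172166. Its nearest protein-coding neighbour on the higher coordinate side, Cnpy1, an endoplasmic reticulum protein of isthmic FGF signalling, lies 28653 bases away and was lower too (35 to 47 reads with and 6 to 9 without Activin A, log2 fold -2.43, SE 0.27). Cnpy1 also entered the test only through its reads with Activin A. Insig1, the neighbour on the other side, fell by 0.24 on the log2 scale (edgeR adjusted p = 0.00156).

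The paired-box genes of the boundary were at the edge of detection. Pax2, the earliest paired-box gene of the isthmus and of the kidney anlage, had 11, 5 and 6 reads with Activin A and 17, 18 and 19 without, which do not overlap. Its log2 fold was 1.21 with an SE of 0.33. Over the alternatives on counts, the log2 fold ran from 0.98 to 1.43.

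Pax5, which follows Pax2 at the isthmus and specifies B cells, had 10, 8 and 1 reads with Activin A and 3, 6 and 2 without. Pax8, the paralog of thyroid and kidney, had 2, 5 and 3 reads with Activin A and 1, 0 and 3 without. The reads of both genes overlap between the groups, neither gene was tested, and no difference was detectable at this depth. The TPM of Pax5 did not overlap (0.045 to 0.070 against 0.012 to 0.034). The 0.070, however, is with Activin A replicate 3, which had 1 read and, at 0.0998, the lowest CPM of the 6 libraries. No direction is read from these TPM values. In none of the 6 libraries did any paired-box gene of this set exceed 0.464 TPM.

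The Meis genes encode homeodomain cofactors of the TALE class that bind DNA with Pbx and Hox proteins. Meis1 had 1.42, 1.64 and 1.44 TPM with Activin A and 1.19, 1.09 and 1.15 TPM without. The groups did not overlap, and the log2 fold was -0.44 with an SE of 0.14. Over the alternatives on counts it ran from -0.48 to -0.38. Meis2 was at 15.4, 15.9 and 17.0 CPM with Activin A and 18.3, 19.5 and 17.5 CPM without. Those CPM values did not overlap, but its TPM did (11.8 to 15.6 with and 14.4 to 16.1 without), and its log2 fold was 0.21 with an SE of 0.08. Over the alternatives on counts it ran from 0.13 to 0.24.

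The order of the genes by TPM differed in the place of Gbx2 and, among the genes of few reads, in those of En2 and Pax2. With Activin A it ran from Otx2 (mean 37.2) over Meis2 (13.5) and En1 (3.51) to Gbx2 (1.64) and Meis1 (1.42 to 1.64 per library), and the last pair overlapped. Without Activin A it ran from Otx2 (26.3) and Meis2 (15.4) to Gbx2 (8.78) and En1 (8.60), which overlapped, and then to Meis1 (1.14). The other 5 genes were each below 0.5 TPM in every library and overlapped with the next gene in the order, except that Pax2 lay above Pax5 with Activin A and Otx1 above Pax8 without. En2 lay above Pax2 with Activin A (0.161 to 0.239 against 0.076 to 0.140 TPM). Without it En2 lay below Pax2 (0.014 to 0.053 against 0.231 to 0.268 TPM), and both genes had at most 21 reads in a library. The place of Meis2 rests on short models, since its transcripts of 304 and 356 bases with at most 12.4 reads each held 38.0% and 20.8% of its TPM with Activin A.

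The signals of the isthmic organizer did not move as 1 group. This list and those below were also chosen with earlier results known, so the adjusted p-values of their genes only describe the fit. Of the 11 genes on the list, 9 were tested, 4 rose, 4 fell and 1 did not pass, with a median log2 fold of -0.16, where 29.2% of all tested genes were called. One of the 4 falls is Cnpy1, tested only through its higher group. With the 2 doubted libraries left out (the shallowest, with Activin A replicate 3, and the one whose labels disagree, without Activin A replicate 1), 3 rose and 4 fell, and with DESeq2 2 rose and 3 fell. Wnt1, the organizer signal of the midbrain side, had 11, 16 and 6 reads with Activin A and 120, 117 and 79 without, with every library without Activin A above every library with it. It rose by a log2 fold of 3.16 (SE 0.24), the 11th largest rise of all tested genes. Wnt1 met the filter cutoff of 0.718 CPM in 1 library with and 3 without Activin A, so its higher group carried it into the test. IWP2, the inhibitor of Wnt secretion, was present in both groups, and what is measured is the transcript.

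Of the FGF ligands on the list, Fgf17 and Fgf15 fell and the other 2 were not tested. Fgf17 had 72, 65 and 27 reads with Activin A and 20, 11 and 12 without, with no overlap, and fell by 1.98 on the log2 scale (SE 0.28, edgeR adjusted p = 7.51e-05). Fgf15 had 69, 69 and 57 reads with Activin A and 35, 37 and 35 without and fell by 0.96 (SE 0.17, edgeR adjusted p = 0.000703), a call lost with the length offset and with limma-trend. Fgf8, the main organizer ligand, had 6, 2 and 2 reads with Activin A and 1, 1 and 0 without and was not tested. Fgf18, with 3 to 10 against 1 to 2 reads, was not tested either. The FGF feedback genes differed little: Dusp6, an ERK phosphatase, rose by a log2 fold of 0.28 (edgeR adjusted p = 0.00169), Spry1 and Spry2 by 0.25 and 0.22 (edgeR adjusted p = 0.0163 and 0.0317), and Il17rd fell by 0.18 (edgeR adjusted p = 0.0312), while Spry4 did not pass (log2 fold -0.16, edgeR adjusted p = 0.410). The calls of Spry1, Spry2 and Il17rd were lost under 6, 10 and 9 of 17 alternatives, DESeq2 (adjusted p = 0.0702, 0.103 and 0.108), the length offset and limma-trend among them. They were also lost without single libraries: Spry1 on removing replicate 2 from either side, and Spry2 and Il17rd on removing either the first replicate grown with Activin A or any 1 library grown without it.

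**Figure D3:**
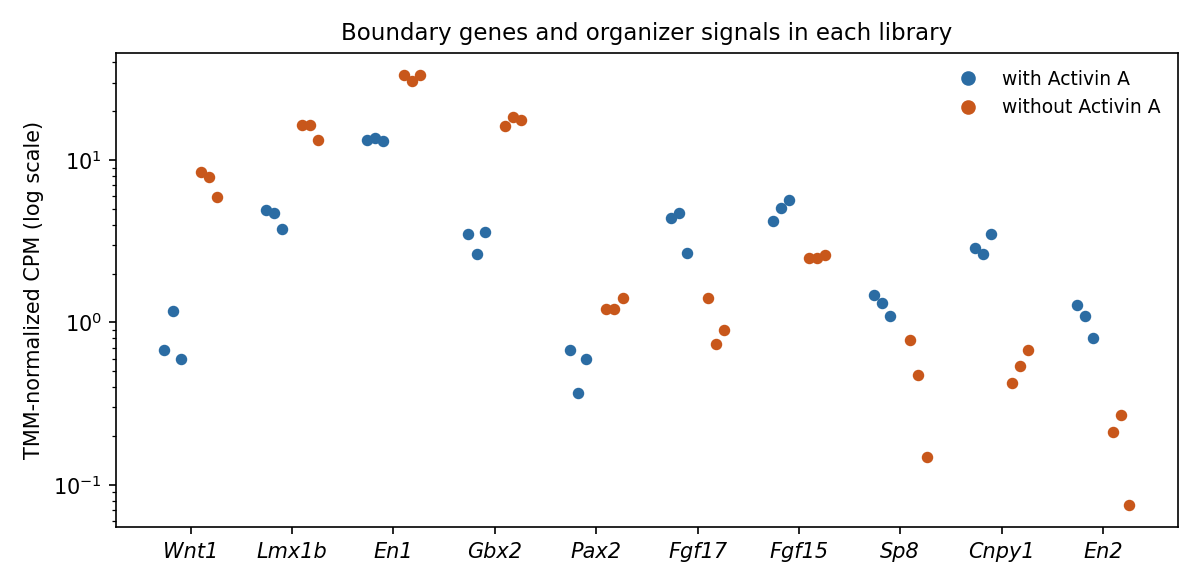
TMM-normalized CPM (log axis) of 5 genes that were higher and 5 that were lower without Activin A. Each point is 1 library, with Activin A on the left of each pair and without on the right. The groups do not overlap for any of the 10 genes. These 10 were picked for the picture after their values were known.

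Among the transcription factors of the isthmus and midbrain, 11 of 15 were tested, 5 rose, 2 fell and 4 did not pass, with a median log2 fold of 0.07 (29.2% of all tested genes called). Lmx1b, a LIM factor that maintains Wnt1 and Fgf8 at the isthmus, had 81, 65 and 38 reads with Activin A and 231, 245 and 177 without. It rose by a log2 fold of 1.75 (SE 0.13, edgeR adjusted p = 1.30e-07), and limma-trend on log2(TPM + 1) and on log2(TPM + 0.1) gave adjusted p of 0.0563 and 0.0605. Dmbx1, a midbrain homeodomain factor, rose by 1.49 (SE 0.28), on 9 to 14 against 27 to 41 reads. It met the filter cutoff of 0.718 CPM in 2 libraries with and 3 without Activin A, so its higher group carried it into the test. Tal2, a midbrain basic helix-loop-helix factor, rose by 0.90 (edgeR adjusted p = 2.32e-06), Irx3 by 0.86 (edgeR adjusted p = 7.70e-05) and Irx5 by 0.83 (edgeR adjusted p = 0.00778), the last pair being Iroquois factors of the neural plate. The Irx5 call was lost with DESeq2 (adjusted p = 0.0560), the length offset, limma-trend on log2(TPM + 0.1) and without the library lacking Activin A replicate 2 (adjusted p = 0.0507).

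The factors that fell in that list were few and thinly covered. Sp8, a zinc finger factor of Fgf8 and Fgf17 expression at the isthmus, had 24, 18 and 11 reads with Activin A and 11, 7 and 2 without. The filter cutoff of 0.718 CPM was met in 3 libraries with and 1 without, so its higher group carried it into the test. Sp8 fell by 1.46 on the log2 scale (SE 0.41), and its call was lost under 7 of 17 alternatives. These were DESeq2 (adjusted p = 0.0518), limma-trend on both scales, the length offset, and the removal of replicate 1 with or of replicate 2 or 3 without Activin A (adjusted p = 0.0779, 0.0549 and 0.0661). Pax7, of the dorsal midbrain, was lower by a log2 fold of -1.11 (SE 0.39), but it entered the test only through its reads with Activin A, and its call was lost under 11 of 16 alternatives. With both doubted libraries out, 5 factors rose and 1 fell.

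**Figure D4:**
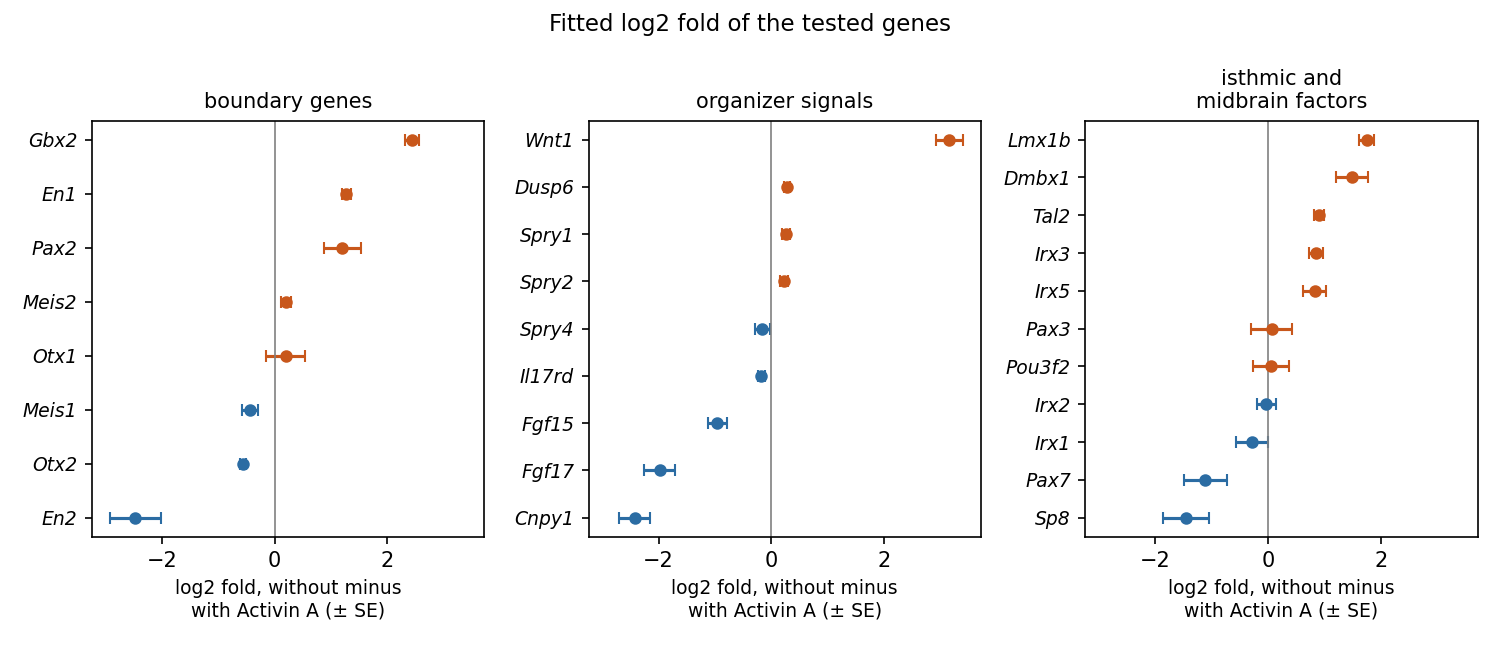
Log2 fold (without minus with Activin A) with its SE for the 8 tested boundary genes, the 9 tested organizer signals and the 11 tested isthmic and midbrain factors, on a common horizontal axis. Values right of the line at 0 were higher without Activin A. Each group has members on both sides, from Cnpy1 at -2.43 to Wnt1 at 3.16 among the signals.

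Genes of the forebrain were mostly too low to test. Only 4 of 17 entered the test, with 2 rises and 2 falls (29.2% of all tested genes called). The other 13 had at most 16 reads in any library. Fezf2, a forebrain zinc finger factor, had 2 to 6 reads with Activin A and 24 to 28 without, a log2 fold of 2.34 (SE 0.33), and entered the test only through the latter. Sfrp1, a secreted Wnt antagonist, fell by 0.47 (SE 0.05, edgeR adjusted p = 7.13e-06). Lhx2 rose by 0.90 (edgeR adjusted p = 0.0176) and Lhx1 fell by 0.97 (SE 0.31). Their calls were lost under 7 and 9 of 17 alternatives. DESeq2 and the removal of both doubted libraries or of replicate 1 of either group were among these. Lhx1 met the filter cutoff of 0.718 CPM in 3 libraries with and 1 without Activin A, so its higher group carried it into the test. Hesx1, an anterior repressor, had 1, 2 and 1 reads with Activin A and 7, 13 and 16 without and was not tested. Six3, which defines the forebrain against Wnt signals, had 2.0 to 4.3 reads with and 3.0 to 6.1 without.

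The posterior list gave 1 rise and 4 falls among 9 tested of 16 genes, with a median log2 fold of -0.31 (29.2% of all tested genes called). The 1 rise was that of Cyp26a1, an enzyme that degrades retinoic acid, also in the anterior neural plate. Whether its rise is anterior or posterior in kind was not tested. Cyp26a1 was at 15.1 ± 1.78 CPM with Activin A and 80.9 ± 3.36 CPM without (SD, n = 3 each). It rose by a log2 fold of 2.40 (SE 0.08, edgeR adjusted p = 1.66e-11), next to Gbx2 in the ranking of all rises, at the 23rd place. Hoxb1, a gene of the hindbrain, had 3 to 6 reads with Activin A and 1 to 6 without and was not tested. Hoxa3 had 10.0 to 21.8 reads with Activin A and 1 to 3 without (log2 fold -2.85, SE 0.46), and Hoxb2 had 9 to 14 and 4 to 6 (log2 fold -1.23, SE 0.38). Both entered the test only through their reads with Activin A. The Hoxa3 call was lost with limma-trend and the length offset, and that of Hoxb2 under 8 of 16 alternatives. These were DESeq2, no low-count filter, the removal of both doubted libraries (adjusted p = 0.0583), and that of any library except the one with Activin A replicate 3 (adjusted p from 0.0528 to 0.112).

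The other falls of the posterior list were Fst, the gene of the Activin antagonist follistatin, by 1.01 (edgeR adjusted p = 0.00601, lost with the length offset at 0.244 and with limma-trend), and Egr2, a factor of hindbrain segmentation, by 0.31 (edgeR adjusted p = 0.0345). The direction of Egr2 depended on the unit: it was 0.19 with the length offset and 0.22 on log2(TPM + 1). DESeq2 did not call it (adjusted p = 0.204), nor did edgeR on leaving out any library except the one with Activin A replicate 3. The count of 4 falls went to 3 without the doubted libraries and to 2 with DESeq2. The Cdx genes of the trunk were at or near 0: Cdx1 and Cdx4 had 0 reads in all 6 libraries and Cdx2 at most 2. That is too few to compare the groups, and it covers the Cdx genes alone.

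The paralogs of the 10 genes stayed low or did not pass. Of 9, 4 were tested, 1 was called lower (Pax7, with the limits given above) and 3 did not pass (29.2% of all tested genes called). Pax6, a neural and eye factor, had a log2 fold of 0.26 (edgeR adjusted p = 0.110) and Meis3 of 0.09 (edgeR adjusted p = 0.547). Gbx1 had at most 3 reads in any library. Crx, the third Otx-type gene, had 2 to 6 reads with Activin A and 7.1 to 11 without and was not tested.

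Partner proteins of Meis and engrailed included genes of low coverage, such as the Groucho genes Tle2 (not tested) and Tle6 with at most 25 reads. All 8 TALE partners were tested, 1 rose, 2 fell and 5 did not pass, with a median of -0.13 (29.2% of all tested genes called). Pknox2 rose by a log2 fold of 0.58 (SE 0.06, edgeR adjusted p = 8.40e-06) and Pknox1 fell by 0.51 (SE 0.11, edgeR adjusted p = 0.00354), 2 TALE factors related to Meis, and Tgif2, a SMAD corepressor, fell by 0.23 (edgeR adjusted p = 0.0174). The calls of Pknox1 and Tgif2 were lost with the length offset (adjusted p = 0.235 and 0.247) and with limma-trend, and that of Tgif2 also without replicate 1 with, or replicate 1 or 3 without, Activin A. Of the Groucho corepressors, which engrailed, Gbx2 and Pax proteins recruit, 5 of 6 were tested, 1 rose, 1 fell and 3 did not pass, while 3 fell with both doubted libraries out. Aes, a short member that opposes the others, fell by 1.48 (SE 0.15, edgeR adjusted p = 8.58e-05), Tle3 rose by 0.22 (edgeR adjusted p = 0.0239), a call lost with limma-trend, without replicate 2 with Activin A and without any 1 of the libraries lacking it (adjusted p from 0.0590 to 0.0825), and Tle4 did not pass (log2 fold -0.05, edgeR adjusted p = 0.579).

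Markers of the cell types that the cultures could hold were read beside these genes, and their counts too stand against 29.2% of all tested genes called. All 9 epiblast stem cell markers were detected, 7 fell, 1 rose and 1 did not pass, with a median of -0.82. Nanog fell by 1.98, Pou5f1 by 1.63 and Utf1 by 1.62 (edgeR adjusted p = 1.14e-11, 4.73e-11 and 2.92e-05), while Sox2 rose by 0.41 (edgeR adjusted p = 5.67e-05). The log2 fold of Otx2, -0.56, lay beside those of Cdh1 (-0.56) and Fgf5 (-0.48), which fell the least of the 7. Fewer cells of a type and less RNA per cell cannot be told apart in such bulk libraries. Of the naive and LIF-response genes, among which Gbx2 is often counted, 7 of 11 were tested, 3 rose, 1 fell and 3 did not pass. Socs3 rose by 0.56 (edgeR adjusted p = 2.30e-05), Klf4 rose by 0.35 (edgeR adjusted p = 0.00321) and Klf2 fell by 0.42 (edgeR adjusted p = 0.00739). Klf5 rose by 0.33 (edgeR adjusted p = 0.0448), a call lost under 12 of 17 alternatives, DESeq2 among them (adjusted p = 0.142). With the length offset and with limma-trend, 1 of these genes rose and 0 fell. The calls of Socs3 and Klf2 were lost with the length offset and limma-trend, and that of Klf2 also on removing replicate 1 from either side, while the naive genes Zfp42, Nr0b1 and Dppa3 had at most 11 reads in any library.

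Of 19 fibroblast markers 18 were tested, 4 rose, 6 fell and 8 did not pass. Their summed level was 216 to 266 TPM with Activin A and 364 to 368 TPM without, and most of that gap was Acta2, at 68.3 ± 3.36 and 167 ± 6.71 TPM (SD, n = 3 each). Without Acta2 the sum was 149 to 194 TPM with and 195 to 204 TPM without. Acta2 rose by a log2 fold of 1.28 (edgeR adjusted p = 1.15e-10), while Col3a1 and Thy1 fell by 1.21 and 1.17 (edgeR adjusted p = 4.17e-09 and 1.30e-05), the Thy1 call being lost with the length offset and limma-trend. Col1a1, Col1a2 and Col5a2 rose by 0.54, 0.78 and 0.70 (edgeR adjusted p = 2.07e-05, 1.61e-08 and 7.16e-08). Col6a3, Dcn, Lox and Postn fell by 0.27, 0.91, 1.07 and 0.86 (edgeR adjusted p = 0.00507, 3.98e-05, 2.63e-06 and 0.00223). With the length offset and with limma-trend, 3 in place of 6 fell. Twist1, Twist2 and Pdgfra, among the 8 that did not pass, were present in all libraries. Meis1, Meis2 and En1 are known from fibroblasts of some body regions, and the part of feeder RNA in their values was not tested.

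Pax2 and Pax8 are also kidney genes and Pax5 a B cell gene. Of 8 markers of intermediate mesoderm and kidney, 6 were tested, 2 rose (Gata3 and Sall1, by 0.65 and 0.37, edgeR adjusted p = 0.0219 and 0.000239) and 4 fell, among them Eya1 by 0.37 (edgeR adjusted p = 0.0194), a call lost under 8 of 17 alternatives, DESeq2 among them (adjusted p = 0.0605). Six2, also among the 4, entered the test only through its reads with Activin A. Lhx1, another, has the limits given above. Gata3 had the opposite sign with the length offset (-0.84) and lost its call with DESeq2 and without replicate 2 or 3 lacking Activin A, and 2 in place of 4 fell without the doubted libraries. Their summed level was 34.7 to 38.8 TPM with and 29.4 to 39.7 TPM without Activin A. Of 6 B cell markers 2 were tested. Ebf1, which is not restricted to B cells, fell by 0.65 (edgeR adjusted p = 0.00104), a call lost with the length offset (log2 fold -0.32, adjusted p = 0.734) and with limma-trend (adjusted p = 0.804 and 0.819). Cd79a, a subunit of the B cell receptor, had at most 4 reads in any library.

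The start site of Otx2 transcripts was compared because the shares within a gene were not used to choose it. Otx2 is transcribed from several starts, of which an upstream, a middle (RefSeq start 48665109) and a downstream one (48662734) could be matched to transcripts. The upstream one joins the close RefSeq starts 48667644 and 48667508. The upstream start held 32.0, 38.0 and 29.7% of the Otx2 TPM with Activin A and 37.7, 38.1 and 43.6% without, with the groups overlapping (exact permutation test, two-sided, p = 0.2). The middle start held 46.4% ± 0.202 with and 43.3% ± 7.86 without (SD, n = 3 each; exact permutation p = 0.7). The downstream start held 4.54, 6.28 and 3.30% with and 0, 3.51 and 1.62% without (exact permutation p = 0.2), and 3 against 3 libraries cannot give less than 0.1. The promoter stretch printed above ends before RefSeq start 48667644, where the transcript Otx2-208 begins. That transcript had 15.3 reads in replicate 2 with Activin A, 18.0 in replicate 2 without and 0 in the other libraries. Most reads of the upstream start were assigned to Otx2-202, which begins further downstream, at 48667513. The window of RefSeq start 48667508, nearer to it, holds 8 CpG and neither core.

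**Figure D5:**
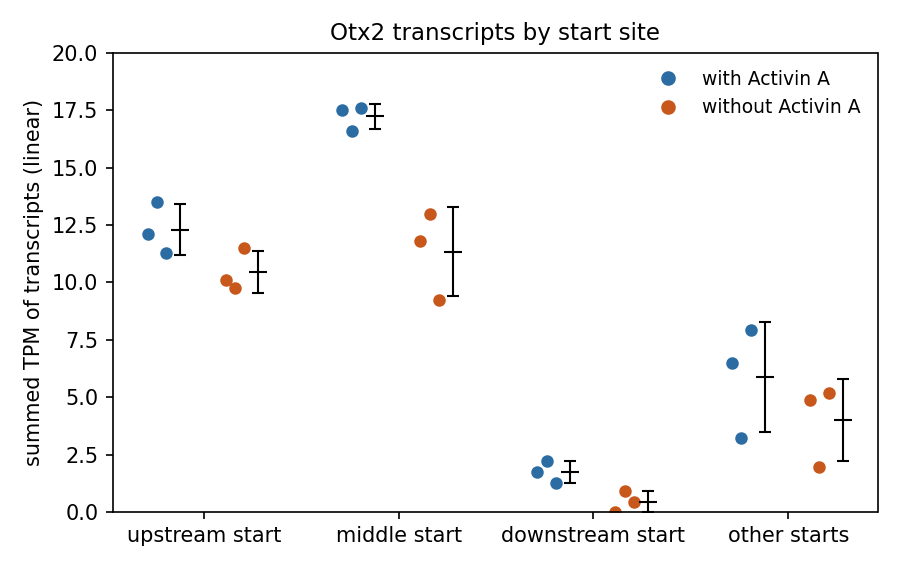
Summed TPM (linear axis from 0) of the Otx2 transcripts of each start site, per library, with the mean and SD beside the points (n = 3). The middle start is the highest in both groups except in the library without Activin A replicate 3, where the upstream start is above it (11.5 against 9.22 TPM).

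In a test of transcript usage over 8968 genes, 235 genes (2.62%) passed and none of the 4 boundary genes in it did. The adjusted p of edgeR's gene-level test was 0.954 for Otx2 and larger for Gbx2, Meis1 and Meis2. The unadjusted p of the 4 genes ran from 0.525 to 0.924, and limma's diffSplice on voom values gave adjusted p from 0.561 to 0.913. On simulated counts of 8552 genes this test found 5% of 2-fold and 34% of 4-fold changes in usage, so a moderate change would mostly be missed.

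By the distance of their log2 CPM profiles over the 6 libraries, the genes most like Otx2 among 10903 protein-coding genes were Cdh1 (root mean square distance 0.0298), Lgmn (0.0310), Rmc1 (0.0315), Lrrn1 (0.0325) and Zfp40 (0.0414). Cdh1, the epithelial cadherin, went from 140 ± 0.744 to 95.0 ± 0.957 CPM (SD, n = 3 each). The genes most like Gbx2 were Cbln1 (0.173), Ephb1 (0.182), Peg10 (0.184), Nxf7 (0.193) and Nptx2 (0.194). Cbln1, a secreted synaptic organizer of the cerebellum, went from 8.64 ± 1.69 to 49.9 ± 2.72 CPM (SD, n = 3 each). The profiles mainly follow the split into 2 groups, so likeness says that the size of the difference was alike in these libraries.

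The direct neighbours of the boundary genes on the chromosome were compared as well. The nearest protein-coding neighbours of Gbx2 are Agap1, 30339 bases away, with a log2 fold of -0.03 (edgeR adjusted p = 0.787), and Asb18, which was not tested. Beside Otx2, Tmem260 rose by 0.32 (edgeR adjusted p = 0.0105) and Exoc5 did not pass (log2 fold 0.16, edgeR adjusted p = 0.105). Beside En1, Insig2 and Marco did not pass (log2 fold -0.18 and -0.05, edgeR adjusted p = 0.0620 and 0.911). Of the 18 tested neighbours, Cnpy1 beside En2 was the only one with a log2 fold above 1 in size.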

How the data were processed

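Per the file headers, the deposited files are salmon output and list, for each of 133618 transcripts, an estimated count and a TPM value. The deposited estimated counts are not normalized, and the deposited TPM values are scaled by the authors' tool for transcript length and library total. Salmon, DESeq2 and edgeR are named, per the submitters' processing notes. Not given in the sources used here are the build, the annotation and whether counting used strand. Per the labels the kit was stranded. Transcripts were matched by identifier, version ignored, to GENCODE M21 (GRCm38): 133399 matched, and the 219 others, with 0.130 to 0.149% of the reads, were left out. Counts were summed per gene and rounded.

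Genes were tested with edgeR 4.0.16 (R 4.3.3; filterByExpr with minimum count 10 and minimum total 15, TMM scaling, robust quasi-likelihood F test, Benjamini-Hochberg adjustment over 15448 genes, threshold 0.05). Log2 folds are the group without minus the group with Activin A, with an SE of the fold's size over the square root of F. On simulated counts of 15225 genes the gene test recovered 68.7% of 1.5-fold, 91% of 2-fold and 98.5% of 4-fold changes, with 12 false calls. All genes were simulated with the same dispersion, the median of the fitted trend, so recovery may be overstated for genes of few reads. Transcript usage was tested with edgeR's diffSpliceDGE. No pair of libraries was alike within sampling noise. Intervals are not given for shares, and depth limits genes under about 10 reads.

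Other settings were upper-quartile and RLE scaling, DESeq2 1.42.0, limma-trend (limma 3.58.1) on log2(TPM + 1) and log2(TPM + 0.1), other low-count filters, a length offset, the replicate number as a block, and each library left out. The removal of both doubted libraries (with Activin A replicate 3, the shallowest, and without Activin A replicate 1, of doubtful label), the removal of GC and length trends (mgcv 1.9.3) and diffSplice on voom values were added later. The 10 genes and the 12 gene lists were chosen with earlier results of these data known. Named are the 10 genes, a panel (Fgf8, Fgf17, Wnt1, Lmx1b, Hesx1, Six3, Irx3, Hoxb1, Egr2, Tle4, and 2 genes whose results are not reported here), per list up to 3 called genes of at least 2 CPM without overlap and with the largest log2 fold, and the 5 genes of at least 5 CPM most like Otx2 and Gbx2. Further list members and neighbours were named after their values were seen.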

Additional observations from a re-analysis of the deposited data

How the results depend on the processing

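As a description, with no support drawn from it, the log2 fold over the alternatives on counts ran from -0.60 to -0.54 for Otx2, 2.30 to 2.53 for Gbx2, 1.22 to 1.32 for En1 and -2.82 to -2.12 for En2.

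Genes higher and lower without Activin A numbered 2155 and 2350. They fell to 778 and 781 with limma-trend on log2(TPM + 1), to 752 and 752 on log2(TPM + 0.1), and to 937 and 1113 with the length offset. Upper-quartile scaling gave 1737 and 2702, and leaving out 1 library gave 1483 to 2808 and 1763 to 2881. List members called were 24 higher and 33 lower, from lists chosen with earlier results known, where 29.2% of all tested genes were called. They include Cnpy1, Fezf2, Pax7, Hoxa3, Hoxb2 and Six2, which entered the test only through their higher group. The counts became 15 and 15 on log2(TPM + 1), 14 and 15 on log2(TPM + 0.1) and 17 and 16 with the length offset. With 1 library left out they were 18 to 24 and 24 to 36. Genes with changed transcript usage, 235, became 112 with Simes adjustment, 150 with transcripts of at least 10% share and 219 to 401 with 1 library left out. The Otx2 to Gbx2 ratio was 29.6 with and 3.63 without Activin A on CPM, and 21.9 to 24.4 and 2.85 to 3.18 with 1 library left out. The cause of these shifts was not tested.

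The sign turned for Otx1 (-0.021 to 0.34 with 1 library left out), Egr2 (0.22, 0.28 and 0.19 on both TPM scales and with the length offset) and Gata3 (-0.54, -0.73 and -0.84 under the same settings), and the cause was not tested.

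The replicate numbers gave no sign of pairing. Same-numbered libraries correlated at -0.02, -0.05 and -0.06 in their deviations from the group means, and differently numbered ones at -0.02 to 0.07. Whether libraries shared a culture or a batch was not tested. With the replicate number as a block, 2125 genes were higher and 2297 lower, and 118 had changed transcript usage.

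Depth limits Otx1, En2, Pax2, Pax5 and Pax8, each with at most 21 reads in a library.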
